A study of Mus musculus with 48 samples.

Results

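Growth arrest and stress genes were followed through the first week after an experimental stroke in the mouse. The set held 10 genes, namely the GADD45 family (*Gadd45a*, *Gadd45b*, *Gadd45g*), 4 genes of the p53 pathway (*Cdkn1a*, *Mdm2*, *Ccng1*, *Btg2*) and 3 further regulators of growth and transcription (*Sertad1*, *Csrnp1*, *Ifrd1*). They were 10 of the 46983 genes in the count tables and 10 of the 19970 genes that passed the filter on low counts (more than 10 counts over all libraries), so that no member was lost. The members were selected on measured values, since earlier results of these same libraries were known when the list was drawn up. No cutoff was attached to that choice, and all values, adjusted p-values included, therefore describe genes already seen to move.

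The bulk RNA came from 48 libraries of 3-month-old male C57Black/6 mice in 11 groups. Control mice had an intact cortex (4 libraries), sham mice went through the surgery under isoflurane without occlusion (4 libraries each at 3 h, 12 h, 24 h, day 3 and day 7), and in the remaining mice the middle cerebral artery was closed permanently by coagulation and transection (MCAO, 5 libraries each at 3 h, 12 h, day 3 and day 7 and 4 at 24 h). By the paper's methods, the sampled tissue was the injured part of the cortex together with tissue that was not affected. The paper's results instead describe the bulk samples as nearly the whole hemisphere on the lesion side. Each library therefore averages over lesion and surroundings. Libraries were made with QuantSeq, which reads a tag at the 3′ end of polyadenylated RNA, and held from 1522668 to 2826735 counts on genes. Levels are given as CPM, the counts of a gene scaled to a common library size, after TMM scaling, a correction for library composition.

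The lists of cell markers moved with the injury as well. The summed level of 6 neuron markers lay between 3956 and 8161 CPM in all 48 libraries, so that neuronal RNA was present in each of them. The neutrophil markers, of which 4 of 5 could be tested, summed to between 9.04 and 59.4 CPM at 3 h after MCAO and to between 1.09 and 7.62 CPM in sham, and the red blood cell markers to between 179.9 and 627 CPM against 10.4 to 97.3 CPM. The summed striatum markers ranged from 102 to 2871 CPM over the libraries, so that the libraries held unequal amounts of RNA from beneath the cortex. Control library A held 499 CPM of choroid plexus markers, beside 0.571 to 2.81 CPM in the other control libraries. Its part in the comparisons with control was not tested.

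GADD45 proteins are small acidic proteins that bind cell cycle kinases, PCNA and the MAP kinase kinase kinase MEKK4, and they couple stress to growth arrest, p38 and JNK signaling, and DNA repair and demethylation. p53 is a transcription factor stabilized by DNA damage and other stress. It induces *Cdkn1a*, which encodes the CDK inhibitor p21, and *Mdm2*, whose product marks p53 itself for degradation. Many of these genes are also switched on within minutes to hours by depolarization, growth factors or ischemia in neurons and glia, as immediate or delayed early genes.

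The promoters of the 6 genes with the largest differences at 3 h are shown with elements marked just before the start of transcription. Some elements are shared between genes, and the *Sertad1* sequence has none of those marked. Each sequence below covers the 150 bases before a RefSeq start on GRCm38.p6, read 5′ to 3′ on the strand of the gene. They lie at chr10:80929941-80930090 (plus strand) for *Gadd45b*, chr13:51846525-51846674 (plus) for *Gadd45g*, chr17:29090829-29090978 (plus) for *Cdkn1a*, chr7:27486803-27486952 (plus) for *Sertad1*, chr9:119983024-119983173 (minus) for *Csrnp1* and chr12:40223190-40223339 (minus) for *Ifrd1*. Capitals mark a TATA box (TATAAA) in the GADD45 genes, a p53 site in *Cdkn1a*, AP-1 sites (TGANTCA) and a half-site of the cyclic AMP response element (TGACG, on either strand) in *Csrnp1*, and such a half-site in *Ifrd1*.
*Gadd45b*: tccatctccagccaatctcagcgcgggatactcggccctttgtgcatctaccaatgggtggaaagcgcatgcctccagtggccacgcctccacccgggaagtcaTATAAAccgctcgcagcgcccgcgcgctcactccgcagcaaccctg
*Gadd45g*: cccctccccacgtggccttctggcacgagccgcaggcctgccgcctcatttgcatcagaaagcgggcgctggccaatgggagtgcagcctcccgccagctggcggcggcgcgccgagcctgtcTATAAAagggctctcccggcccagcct
*Cdkn1a*: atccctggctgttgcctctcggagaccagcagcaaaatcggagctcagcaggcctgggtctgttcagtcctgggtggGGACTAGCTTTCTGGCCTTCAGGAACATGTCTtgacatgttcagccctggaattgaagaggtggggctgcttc
*Sertad1*: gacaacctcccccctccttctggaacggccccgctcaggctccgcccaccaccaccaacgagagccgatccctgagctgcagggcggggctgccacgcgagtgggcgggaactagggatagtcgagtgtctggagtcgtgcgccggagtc
*Csrnp1*: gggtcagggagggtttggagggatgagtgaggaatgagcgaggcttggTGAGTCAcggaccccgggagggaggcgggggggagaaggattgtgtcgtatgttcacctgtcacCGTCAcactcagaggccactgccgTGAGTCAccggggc
*Ifrd1*: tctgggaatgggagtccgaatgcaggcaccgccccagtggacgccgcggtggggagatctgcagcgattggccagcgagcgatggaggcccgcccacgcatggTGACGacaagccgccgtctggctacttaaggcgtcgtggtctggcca

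The p53 site of *Cdkn1a* spans positions -73 to -42 from the start at 29090979 and includes the spacer between its arms. The window of another RefSeq start of *Cdkn1a*, at 29093769, held GC boxes and no p53 site. Of 32851 windows around mouse starts (250 bases before to 50 after, both strands searched), 0.0731% held a p53 site, and *Cdkn1a* was the 1 member of 10 with a match. TATAAA was found in 13.6% of all windows and among the members in *Gadd45b* and *Gadd45g*. The AP-1 letters stood in 7.81% of windows and in 1 member, *Csrnp1*, where 2 copies lie before the start shown, one of several RefSeq starts of that gene. TGACG occurred in 20.8% of windows and in 4 members (*Mdm2*, *Btg2*, *Csrnp1* and *Ifrd1*). *Btg2* alone held the full element TGACGTCA (1.79% of windows), at positions -166 to -159, and the half-site letters overlap it. The E-box CACGTG occurred in 7.15% of windows and in *Gadd45b* and *Gadd45g*, and the GC box GGGCGG in 35.7% of windows and 8 members. The CArG box of serum response factor (1.63% of windows) and the NF-kB site (4.51%) matched no member window. The percentages count windows, while a member was counted if any of its windows matched. *Csrnp1* and *Cdkn1a* had several windows, so the 2 kinds of count are not the same measure. A match describes letters in a window and not a bound site.

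The comparison of MCAO with sham of the same time asked what the occlusion added to the surgery. At 3 h, 5 of the 10 genes were higher after MCAO at an adjusted p under 0.01 and a log2 fold change over 0.58 (edgeR quasi-likelihood test, Benjamini-Hochberg over all genes), namely *Gadd45b*, *Gadd45g*, *Sertad1*, *Csrnp1* and *Ifrd1*. Only 18 of all genes tested passed on the higher side, which is 0.0901%. Of the members, 3 passed at 12 h (*Cdkn1a*, *Mdm2*, *Ifrd1*), 0 at 24 h, 2 at day 3 (*Gadd45g*, *Sertad1*) and 0 at day 7, while the share of all genes called higher was 0.346% at 12 h, 0.0801% at 24 h, 3.76% at day 3 and 2.07% at day 7. No member was called lower at any time. At the times without a call, 7 members at 24 h and 2 at day 7 had an unadjusted p under 0.05, beside 8.8% and 23.5% of all genes, and DESeq2 called 1 and 0.

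**Figure D1:**
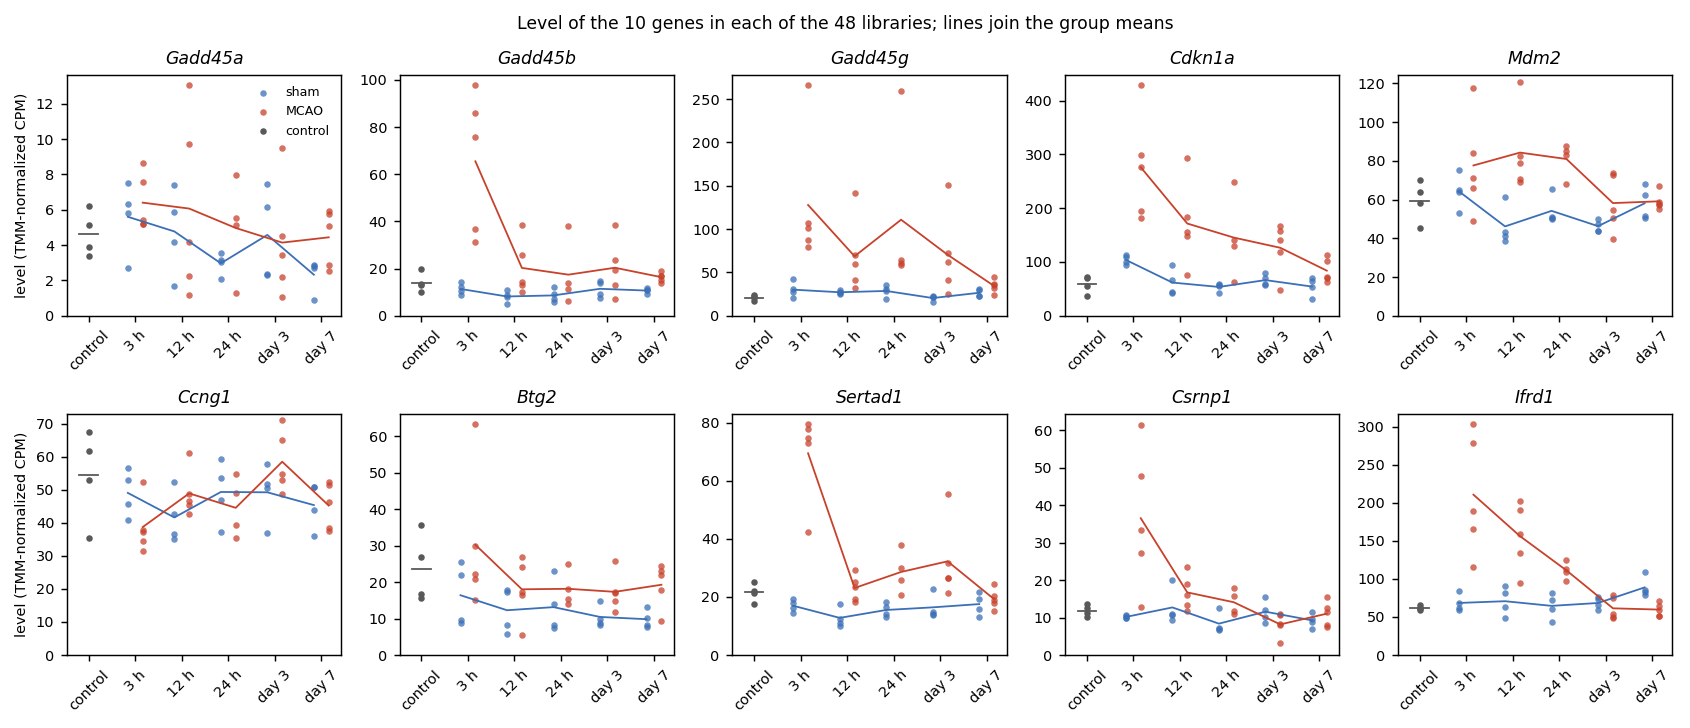
Level of the 10 genes (1 panel each, y axis in TMM-normalized CPM from 0) in each of the 48 libraries, by time after surgery on the x axis, for control, sham and MCAO. Points are libraries, lines join the group means and the dash is the control mean. At 3 h all MCAO points lie above all sham points for *Gadd45b*, *Gadd45g*, *Cdkn1a*, *Sertad1*, *Csrnp1* and *Ifrd1*, and at day 7 the *Ifrd1* points show the opposite order.

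The median log2 fold change over the 10 members was 1.51 at 3 h, 0.85 at 12 h, 0.76 at 24 h, 0.53 at day 3 and 0.31 at day 7. The median over all genes stayed between 0.00 and 0.06 in these comparisons. In bulk tissue, more RNA per cell and more cells of a type that holds the RNA cannot be told apart, and the part of the marker shifts in these differences was not tested. The plot of fold changes by time shows the lower medians at the later times, and also that *Gadd45g* and *Cdkn1a* kept fitted values of at least 0.93 through day 3.

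**Figure D2:**
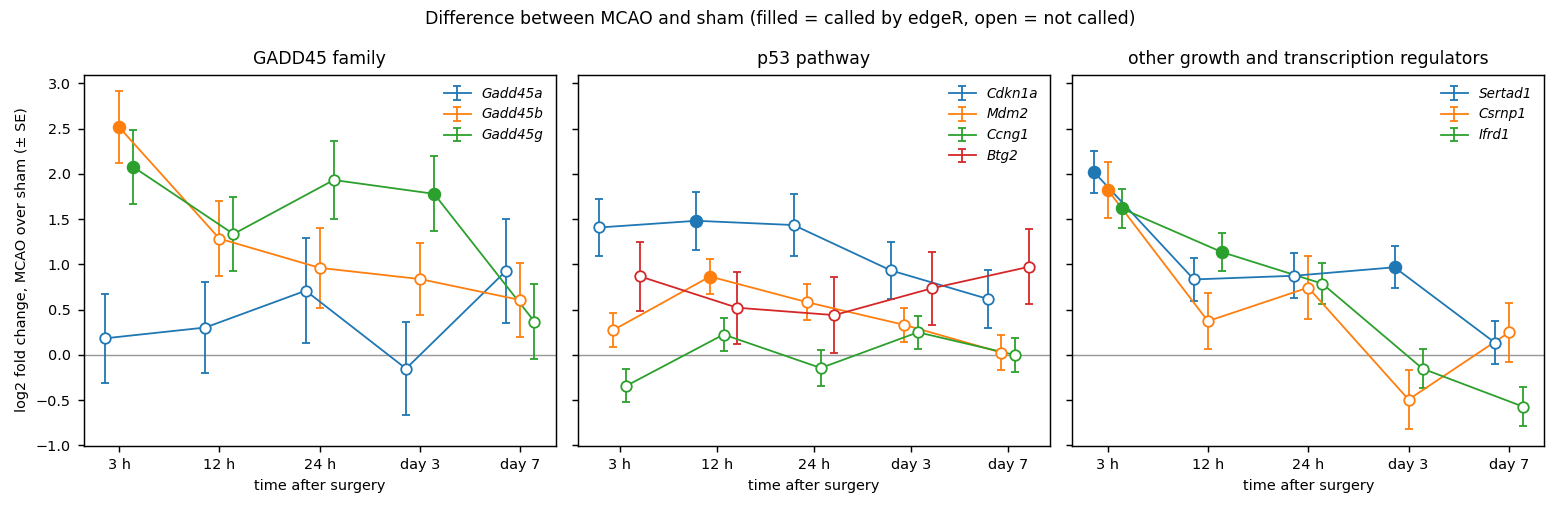
Log2 fold change of MCAO over sham of the same time (y axis, error bars are SE) at 3 h, 12 h, 24 h, day 3 and day 7 (x axis), in 3 panels for the GADD45 family, the p53 pathway and the other regulators. Filled points were called by edgeR and open points were not. At 3 h 5 points are filled, *Gadd45b* being the highest at 2.52, and at day 7 *Ifrd1* is the lowest at -0.57.

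Within the GADD45 family, *Gadd45b* and *Gadd45g* rose at 3 h while *Gadd45a* was not called. *Gadd45b* (chromosome 10, 80930073 to 80932204) encodes an acute stress and activity-induced member that promotes p38 signaling. Its level at 3 h was 97.6, 75.6, 31.5, 36.6 and 86.1 CPM in the MCAO libraries A to E, and 8.70, 12.1, 14.3 and 10.4 CPM in the sham libraries A to D. The lowest MCAO library was above the highest sham library, and among the MCAO libraries C and D held less than the others. The fitted difference was 2.52 ± 0.39 on the log2 scale (SE, edgeR adjusted p = 3.03e-04), or 5.72-fold.

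Smaller *Gadd45b* differences were measured after 3 h. The mean excess over sham was 54.1 ± 13.4 CPM (SE) at 3 h, and 22.4%, 16.3%, 16.5% and 10.5% of that amount remained at 12 h, 24 h, day 3 and day 7. Values at 12 h spread widely, from 10.01 CPM in library A to 38.6 CPM in library C, against 5.03 to 10.9 CPM in sham (log2 fold change 1.28 ± 0.41, edgeR adjusted p = 0.107). Day 7 brought a small but even difference. All 5 MCAO libraries then had between 13.9 and 19.0 CPM and all 4 sham libraries between 9.27 and 11.9 CPM, and the fitted difference of 0.61 ± 0.41 on the log2 scale was not called (edgeR adjusted p = 0.387). The day 7 MCAO values lay within the control range of 10.3 to 19.8 CPM.

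*Gadd45g* (chromosome 13, 51846678 to 51848468), a family member known for roles in neural development and in cytokine-induced growth arrest, was called at 3 h and again at day 3. At 3 h the MCAO libraries held 266, 107, 101, 87.0 and 78.8 CPM and the sham libraries 20.2, 30.5, 42.6 and 27.3 CPM. The groups did not overlap, although library A stood far above the other MCAO libraries. The log2 fold change was 2.08 ± 0.41 (edgeR adjusted p = 0.00848), and without MCAO library A it was 1.63 with an adjusted p of 0.0691. Leaving out MCAO library B or any 1 of the sham libraries also moved the adjusted p over 0.01, with log2 fold changes of 1.92 to 2.30.

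Between these calls the groups also stayed apart. At 12 h the MCAO values were 31.5, 40.8, 141, 70.0 and 59.6 CPM against 29.6, 27.6, 25.1 and 26.1 CPM in sham (1.33 ± 0.41 on the log2 scale, edgeR adjusted p = 0.0842). At 24 h they were 60.8, 64.5, 58.9 and 259 CPM against 30.9, 28.4, 19.5 and 35.7 CPM (1.93 ± 0.43, edgeR adjusted p = 0.0258), and this difference passed without a filter, with spike-in scaling and with DESeq2 (adjusted p from 4.15e-04 to 0.00743). Every MCAO library exceeded every sham library at both times. Library D set the size at 24 h, since the log2 fold change without it was 1.08 (edgeR adjusted p = 0.429).

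At day 3 *Gadd45g* was called again. The MCAO libraries held 24.6, 41.6, 71.9, 151 and 62.6 CPM, and the sham libraries 21.8, 22.6, 15.9 and 21.6 CPM. No sham library reached the lowest MCAO library, and the log2 fold change was 1.78 ± 0.41 (edgeR adjusted p = 0.00314). Without MCAO library D it was 1.27 (edgeR adjusted p = 0.0397), and the call was likewise lost without any 1 of the 4 sham libraries, with spike-in scaling (1.49, adjusted p = 0.0129), with only the groups compared in the fit (adjusted p = 0.0160) and with limma on the deposited log2 matrix (adjusted p = 0.0122). Cell markers differed between these groups too. At day 3 the microglia markers summed to between 437 and 1255 CPM after MCAO and to between 176 and 270 CPM in sham, the monocyte and macrophage markers to between 23.5 and 891 CPM against 6.07 to 16.4 CPM, and the neuron markers to between 4562 and 7100 CPM against 6991 to 8161 CPM, and their part in the day 3 differences was not tested. By day 7 the groups overlapped, at 23.7 to 45.1 CPM after MCAO and 22.3 to 31.0 CPM in sham. The excess over sham, as a percentage of that at 3 h, was 42.5% at 12 h, 84.1% at 24 h, 51.1% at day 3 and 8.05% at day 7.

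*Gadd45a*, the founding DNA damage-inducible member and a p53 target, was the rarest of the family. It gave between 2 and 25 counts per library, and its group means lay between 2.32 and 6.40 CPM. At 3 h it measured 5.42, 5.20, 7.55, 5.17 and 8.66 CPM after MCAO and 7.51, 6.33, 5.83 and 2.73 CPM in sham. A log2 fold change of 0.18 ± 0.49 (edgeR adjusted p = 0.985) does not settle the direction at this depth. The largest fitted value, 0.93 ± 0.58 at day 7, also failed (edgeR adjusted p = 0.334). Its sign at 3 h, 12 h and day 3 turned when single libraries were left out, and its locus overlaps an antisense transcript (*E230016M11Rik*).

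The makeup of the family differed between groups. Because each transcript gives 1 tag whatever its length, the 3 genes can be compared as shares of the family's counts. *Gadd45a* made up 12.4% ± 6.05 (SD, n = 4) of the family counts in sham at 3 h and 3.73% ± 1.62 (SD, n = 5) after MCAO, where the ranges were 6.76 to 20.7% and 1.47 to 5.41%. *Gadd45b* held 24.3% ± 1.20 in sham and 33.5% ± 11.2 after MCAO at that time, and *Gadd45g* 63.3% ± 5.82 and 62.8% ± 11.5. *Gadd45g* was 52.9% ± 4.54 of the family in control, 82.1% ± 5.72 at 24 h after MCAO and 70.5% ± 9.63 in sham at 24 h, where the ranges of 77.1 to 88.8% and 56.1 to 76.5% do not overlap. The ratio of *Gadd45g* to *Gadd45b* had a median of 1.66 in control, 2.38 at 3 h, 3.15 at 12 h, 5.99 at 24 h, 3.17 at day 3 and 2.40 at day 7 after MCAO. The sham medians at these times were 2.58, 3.08, 3.93, 1.83 and 2.54, so that the sham medians were above that of control as well, and the ranges of MCAO and sham overlapped at every time. Shares rest on 56 to 78 family counts per library in control and on 299 to 612 at 3 h after MCAO, and they are descriptions without a test.

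**Figure D3:**
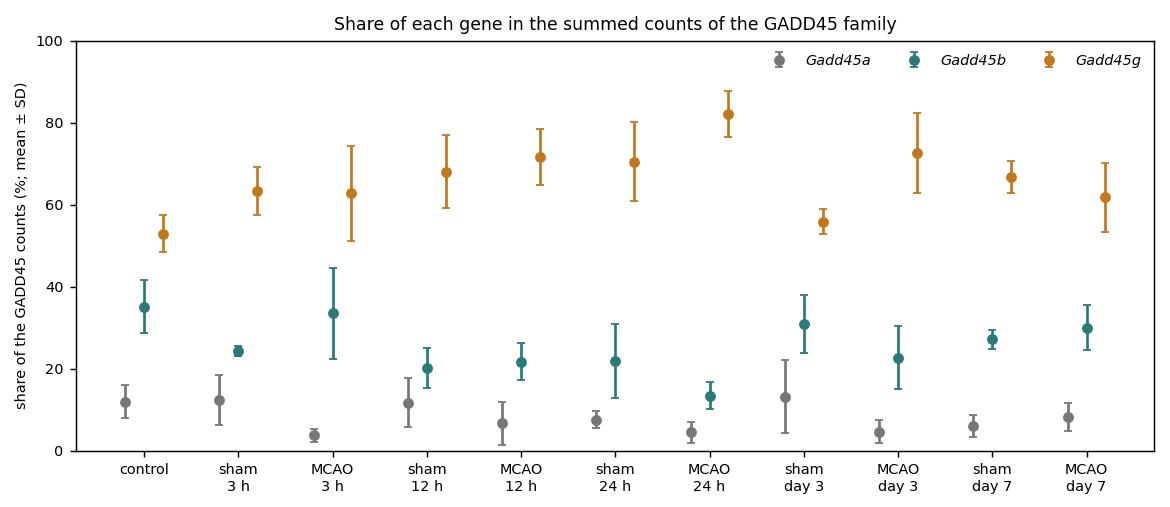
Share of *Gadd45a*, *Gadd45b* and *Gadd45g* in the summed counts of the GADD45 family (y axis, percent, points are means and error bars SD of 4 or 5 libraries) for each of the 11 groups (x axis). *Gadd45g* holds 82.1% at 24 h after MCAO, and *Gadd45a* holds 3.73% at 3 h after MCAO against 12.4% in sham.

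Among the p53 pathway genes, *Cdkn1a* had the largest fitted difference from sham up to day 3, and *Btg2* had it at day 7. *Cdkn1a* (chromosome 17, 29090976 to 29100727) encodes p21, which stops the cell cycle by inhibiting cyclin-CDK complexes. At 3 h it measured 429, 299, 181, 194 and 277 CPM after MCAO and 113, 109, 94.1 and 99.2 CPM in sham. All MCAO libraries were above all sham libraries, yet the log2 fold change of 1.41 ± 0.32 missed the threshold (edgeR adjusted p = 0.0239). It passed without a filter on low counts (adjusted p = 5.34e-04), with only the groups compared in the fit (0.00169) and with DESeq2 (0.00930). The sham libraries at this time were above the control libraries. Their mean of 103.9 CPM ± 8.66 (SD, n = 4) compares with 58.5 CPM ± 16.5 (SD, n = 4) in control, a log2 difference of 0.83 ± 0.34 without overlap of the groups (edgeR unadjusted p = 0.0177, adjusted p = 1.00).

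At 12 h *Cdkn1a* passed against sham, with 76.4, 183, 293, 149 and 157 CPM after MCAO and 66.5, 94.4, 44.0 and 42.1 CPM in sham. Library A lay within the sham range, and the other MCAO libraries were above it (1.48 ± 0.32, edgeR adjusted p = 0.00900). This call stood close to the threshold and was lost without MCAO library B, C or E or sham library A, C or D, with 1.20 (edgeR adjusted p = 0.0533) without MCAO library C. It was also lost with spike-in scaling (1.39, adjusted p = 0.0151), with only the groups compared (adjusted p = 0.103) and with limma (adjusted p = 0.0149). At 24 h the values were 62.0, 141, 130.1 and 249 CPM after MCAO and 55.8, 56.9, 59.1 and 42.5 CPM in sham, which do not overlap (1.43 ± 0.34, edgeR adjusted p = 0.0469, and 0.00178 without a filter).

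Smaller *Cdkn1a* differences were fitted at the later times, although the change from 24 h to day 3 (-0.50 ± 0.46, edgeR adjusted p = 0.783) and that from 3 h to day 7 (-0.79 ± 0.44, edgeR adjusted p = 0.387) did not pass. At day 3, MCAO library A was lowest at 47.0 CPM, below all 4 sham libraries (57.0 to 79.4 CPM), and the other MCAO libraries held 118 to 167.5 CPM (0.93 ± 0.32, edgeR adjusted p = 0.0568). Without library A the difference was 1.14 and passed (edgeR adjusted p = 0.00762). At day 7 the MCAO libraries held 63.1 to 112 CPM and the shams 30.3 to 69.5 CPM (0.62 ± 0.32, edgeR adjusted p = 0.240). Relative to 3 h, 63.8%, 53.3%, 34.9% and 17.2% of the excess over sham was left at the 4 later times.

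*Mdm2* (chromosome 10, 117688875 to 117710758), the ubiquitin ligase gene that p53 induces and that restrains p53, was called only at 12 h. It then measured 82.3, 68.9, 120.5, 78.8 and 70.9 CPM after MCAO and 41.3, 43.3, 38.4 and 61.6 CPM in sham. The groups did not overlap, and the log2 fold change was 0.87 ± 0.19 (edgeR adjusted p = 0.00944). The value was barely past the threshold, and it was lost without MCAO library A, C (0.70, edgeR adjusted p = 0.0562), D or E or sham library A, B or C. It was lost too with spike-in scaling (0.72, adjusted p = 0.0878) and with only the groups compared (adjusted p = 0.169). At 24 h the 4 MCAO libraries were again above all shams, at 67.8 to 87.7 against 50.002 to 65.3 CPM (0.58 ± 0.20, edgeR adjusted p = 0.286). At 3 h the groups overlapped, at 49.1 to 118 and 53.3 to 75.5 CPM.

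*Ccng1* and *Btg2* were not called in any comparison. *Ccng1* encodes cyclin G1, a p53 target that works with MDM2 and the phosphatase PP2A, and its group means lay between 38.7 and 58.4 CPM. Its lowest mean belonged to MCAO at 3 h, where library values were 34.4, 37.3, 52.4, 37.9 and 31.4 CPM against 56.5, 40.9, 52.9 and 45.8 CPM in sham (-0.34 ± 0.18 on the log2 scale, edgeR adjusted p = 0.627). *Btg2* encodes an antiproliferative regulator of messenger RNA decay and is also an activity-induced early gene. It measured 63.3, 20.8, 29.8, 15.1 and 22.3 CPM after MCAO at 3 h and 9.49, 21.9, 25.5 and 8.72 CPM in sham, so that libraries A and C were above the sham range and the others within it (0.87 ± 0.38, edgeR adjusted p = 0.531). The largest *Btg2* difference was 0.97 ± 0.41 at day 7 (edgeR adjusted p = 0.134).

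*Sertad1* (chromosome 7, 27486910 to 27490316) had the smallest adjusted p of the 10 genes. It encodes a coactivator of E2F transcription factors that also binds CDK4 and has been tied to neuronal death pathways. At 3 h it measured 79.6, 74.7, 73.0, 42.2 and 77.9 CPM after MCAO and 19.4, 17.8, 14.3 and 16.4 CPM in sham. MCAO library D was lower than the other 4, which were close to each other, and all 5 were above the highest sham. The log2 fold change was 2.03 ± 0.23 (edgeR adjusted p = 3.14e-07), or 4.07-fold.

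*Sertad1* was called again at day 3. In between, the groups stayed apart at smaller differences, with 18.2 to 29.2 CPM after MCAO against 10.1 to 17.5 CPM in sham at 12 h (0.83 ± 0.24, edgeR adjusted p = 0.0643) and 20.8 to 37.9 against 13.1 to 18.3 CPM at 24 h (0.87 ± 0.25, edgeR adjusted p = 0.150). At day 3 the MCAO libraries held 21.4, 31.6, 26.5, 26.4 and 55.5 CPM and the shams 22.8, 13.8, 14.9 and 14.1 CPM, with 4 of 5 MCAO libraries above all shams (0.97 ± 0.23, edgeR adjusted p = 0.00398). Library E was the highest by a wide margin, and without it the log2 fold change was 0.67 (edgeR adjusted p = 0.0656). The call was also lost without sham library B, C or D, with spike-in scaling (0.72, adjusted p = 0.0744) and with only the groups compared (adjusted p = 0.0526). At day 7 the ranges overlapped, at 15.0 to 24.4 and 13.2 to 21.8 CPM.

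*Csrnp1* (chromosome 9, 119971163 to 119984658), a nuclear protein gene first described as induced by AXIN1, was called at 3 h only. Its MCAO libraries then held 61.5, 47.7, 27.3, 12.9 and 33.3 CPM, while the shams were almost identical at 10.7, 10.4, 9.86 and 9.81 CPM. The MCAO values covered a wide range, with library D just above the shams and library A the highest. The log2 fold change was 1.83 ± 0.31 (edgeR adjusted p = 0.00132), and it was 1.56 (edgeR adjusted p = 0.0139) without library A. Leaving out sham library C or D also raised the adjusted p over 0.01, to 0.0126 and 0.0113, as did a fit of only the groups compared (0.0150).

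From 12 h on, *Csrnp1* values of the groups overlapped. They were 11.8 to 23.5 CPM after MCAO and 9.39 to 19.96 CPM in sham at 12 h, and 11.05 to 17.8 and 6.82 to 12.5 CPM at 24 h. At day 3 the MCAO mean was below the sham mean, 8.18 CPM ± 3.07 (SD, n = 5) against 11.6 CPM ± 3.08 (SD, n = 4), a difference that did not pass (-0.49 ± 0.32, edgeR adjusted p = 0.388). *Csrnp1* lies on the same strand as 1 long transcript of *Cx3cr1*, the fractalkine receptor gene of microglia. *Cx3cr1* was not called at 3 h, with 76.8 to 126.6 CPM after MCAO and 77.5 to 152.6 CPM in sham (log2 fold change -0.08, edgeR adjusted p = 0.989). At day 3 *Cx3cr1* was higher by 1.77 (edgeR adjusted p = 3.77e-05). *Csrnp1* also overlaps *1700019L13Rik* on the other strand. The part of overlapping transcripts in the *Csrnp1* counts was not tested.

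*Ifrd1* (chromosome 12, 40201567 to 40248504), a transcriptional coregulator also known as Tis7 that is induced by growth factors and cell stress, was called at 3 h and 12 h. The MCAO libraries at 3 h held 304, 189.5, 278, 116 and 166 CPM and the shams 84.6, 62.2, 58.7 and 68.1 CPM. The groups did not overlap, and the log2 fold change was 1.62 ± 0.22 (edgeR adjusted p = 8.71e-06). At 12 h the values were 134, 159, 191, 94.7 and 202 CPM against 48.04, 63.1, 81.0 and 90.8 CPM (1.13 ± 0.21, edgeR adjusted p = 0.00191). MCAO library D then lay just above the highest sham. That call was lost without MCAO library E or sham library A or B (edgeR adjusted p from 0.0127 to 0.0161), with spike-in scaling (0.99, adjusted p = 0.0334) and with only the groups compared (adjusted p = 0.0828).

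*Ifrd1* was the 1 member whose fitted difference turned negative with the groups apart. At 24 h all MCAO libraries were still above all shams, with 97.2 to 125 CPM against 44.0 to 81.4 CPM (0.79 ± 0.23, edgeR adjusted p = 0.150). At day 3 the means were 61.4 CPM ± 14.6 (SD, n = 5) and 68.4 CPM ± 7.93 (SD, n = 4). At day 7 the MCAO libraries held 71.0, 51.9, 64.8, 59.5 and 51.4 CPM and the shams 82.4, 84.9, 110 and 78.5 CPM, so that every MCAO library was below every sham library, an order that 5.1% of all genes showed. The log2 fold change of -0.57 ± 0.21 did not pass (edgeR adjusted p = 0.0826). Control libraries held 59.3 to 66.4 CPM, and the day 7 shams were all above them.

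Counting only whether every MCAO library was above every sham library, 6 members did so at 3 h, 4 at 12 h (*Gadd45g*, *Mdm2*, *Sertad1*, *Ifrd1*), 5 at 24 h (those 4 and *Cdkn1a*), 1 at day 3 (*Gadd45g*) and 1 at day 7 (*Gadd45b*). Among all genes tested the same order held for 2.27% at 3 h, 2.03% at 12 h, 3.73% at 24 h, 4.33% at day 3 and 5.38% at day 7. At 24 h, 0 members were called although 5 were without overlap, and the smallest adjusted p was that of *Gadd45g* (0.0258). The 24 h MCAO group was the smallest of the 5, with 4 libraries.

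Changes of the MCAO effect with time were tested as differences between the effects at 2 times. No member passed between 3 h and 12 h, 12 h and 24 h, 24 h and day 3, or day 3 and day 7, where 0.01%, 0.01%, 0.01% and 0% of all genes passed in either direction. Unadjusted p-values under 0.05 were found for 5, 0, 2 and 2 members in these comparisons, beside 7.12%, 5.08%, 8.82% and 16.2% of all genes, and DESeq2 called 0. From 3 h to 12 h the effects on *Sertad1* and *Csrnp1* differed by -1.19 ± 0.33 and -1.45 ± 0.43 on the log2 scale (edgeR adjusted p = 0.400 and 0.462).

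Between 3 h and day 7, where 0.16% of all genes passed, the effect was smaller at day 7 for *Ifrd1* and *Sertad1*. The change was -2.19 ± 0.30 for *Ifrd1* (edgeR adjusted p = 5.73e-05) and -1.89 ± 0.33 for *Sertad1* (edgeR adjusted p = 0.00217). *Gadd45b* (-1.91 ± 0.56, adjusted p = 0.0789), *Csrnp1* (-1.58 ± 0.45, adjusted p = 0.0712) and *Gadd45g* (-1.71 ± 0.57, adjusted p = 0.125) had changes of similar size in the same edgeR test without passing. Among the other members, *Cdkn1a* differed by -0.79 ± 0.44 and the rest by between -0.25 and 0.75. With 1 library left out at a time the count stayed at 2 members except without sham library C of 3 h, where it was 1.

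The surgery alone was compared through sham against control, and no member was called at any time. The share of all genes called in either direction was 0% at 3 h, 0.0351% at 12 h, 0.01% at 24 h, 0% at day 3 and 0% at day 7. Unadjusted p-values under 0.05 were found for 1, 2, 0, 1 and 2 members, beside 3.69%, 5.43%, 4.31%, 3.66% and 8.03% of all genes, and DESeq2 called 0 at every time. The libraries of sham and control did not overlap for 1, 2, 0, 1 and 3 members, beside 3%, 2.9%, 4.27%, 3.3% and 5.02% of all genes. These 5 comparisons share the same 4 control libraries.

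At 3 h the 1 member without overlap was *Cdkn1a*, given above, and at day 3 it was *Btg2*. *Btg2* measured 15.6, 16.9, 35.6 and 26.8 CPM in control. Its sham libraries were lower at day 3, at 8.34, 14.8, 9.81 and 8.90 CPM, and at day 7, at 13.2, 10.3, 8.18 and 7.76 CPM, in both cases below every control library. The log2 differences were -1.18 ± 0.42 and -1.27 ± 0.43 (edgeR unadjusted p = 0.00679 and 0.00453, adjusted p = 1.00 and 0.573). *Sertad1* at 12 h (-0.74 ± 0.26) and *Ifrd1* at day 7 (0.51 ± 0.23) were also without overlap and failed the correction (edgeR adjusted p = 0.867 and 0.593). So did *Gadd45g* at 12 h, where all 4 shams were above control (0.36 ± 0.45, edgeR adjusted p = 0.961), and *Gadd45a* at day 7, where the shams held 2.86, 2.80, 2.73 and 0.912 CPM and control 3.91, 6.18, 3.39 and 5.14 CPM (means 2.32 and 4.65 CPM, edgeR adjusted p = 0.670).

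Set against control, 6 members were higher at 3 h after MCAO, 2 at 12 h, 1 at 24 h, 1 at day 3 and 0 at day 7, with 0 unadjusted p-values under 0.05 at day 7, beside 14.9% of all genes, and 0 DESeq2 calls. The share of all genes called higher was 0.115%, 0.386%, 0.12%, 2.81% and 1.09% at these times. At 3 h the 6 were *Gadd45g* (2.60 ± 0.43 on the log2 scale), *Cdkn1a* (2.23 ± 0.33), *Gadd45b* (2.21 ± 0.39), *Ifrd1* (1.75 ± 0.22), *Sertad1* (1.68 ± 0.23) and *Csrnp1* (1.61 ± 0.31), with edgeR adjusted p-values from 2.01e-06 to 0.00325. *Cdkn1a* passed against control (edgeR adjusted p = 8.52e-05), while in the same fit it missed the threshold against sham. *Cdkn1a* (1.55 ± 0.33) and *Ifrd1* (1.32 ± 0.22) passed at 12 h, and *Gadd45g* alone at 24 h (2.38 ± 0.44) and day 3 (1.74 ± 0.42). These comparisons use the same control libraries and the same MCAO libraries as those above.

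Ranked by mean level over the 11 groups, the order within each gene was graded. For every member the highest group was an MCAO group, at 3 h for 8 of the 10 genes, at 12 h for *Mdm2* (84.3 CPM ± 21.0, SD, n = 5) and at day 3 for *Ccng1* (58.4 CPM ± 9.17, SD, n = 5). No pair of neighbours in the order, 0 of 10 for each gene, had ranges that were apart. The gap between neighbours was larger than the larger of their SDs in 1 pair for *Gadd45b*, *Gadd45g*, *Cdkn1a*, *Mdm2*, *Sertad1* and *Csrnp1*, in 2 pairs for *Ifrd1* and in 0 pairs for *Gadd45a*, *Ccng1* and *Btg2*. The pairs of *Gadd45g* (sham at day 7 over control, gap 5.54 CPM) and *Mdm2* (sham at 24 h over sham at day 3, gap 7.91 CPM) held no MCAO group. For *Gadd45b*, *Cdkn1a*, *Sertad1* and *Csrnp1* the pair was MCAO at 3 h over the next group.

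Single libraries carried several members at once. At 3 h, MCAO library A was the highest of its group for 7 members. It had the lowest neutrophil (9.04 CPM) and fibroblast (42.8 CPM) markers and the highest striatum markers (1675 CPM) of the group. Library D at 3 h was lowest for 5 members. It had the highest neutrophil (59.4 CPM), monocyte and macrophage (17.7 CPM) and red blood cell (627 CPM) markers of the group. Its astrocyte (721 CPM) and choroid plexus (0.862 CPM) markers were the lowest. Library C at 12 h was highest for 7 members. It had the highest red blood cell (1416 CPM), fibroblast (133.5 CPM), oligodendrocyte (1720 CPM) and astrocyte (824 CPM) markers. Its neuron (6021 CPM), microglia (149 CPM) and striatum (310 CPM) markers were the lowest of the group. Library A at 12 h was lowest for 5 members. It had the lowest neutrophil (11.1 CPM), endothelial (102 CPM) and red blood cell (69.7 CPM) markers and the highest choroid plexus markers (39.7 CPM). Library D at 24 h was highest for 6 members and had the highest striatum (2871 CPM) and oligodendrocyte (4055 CPM) markers. It also had the highest neutrophil (55.0 CPM), monocyte and macrophage (87.4 CPM), fibroblast (181 CPM) and red blood cell (458 CPM) markers. Its endothelial (203 CPM) and astrocyte (844.5 CPM) markers were the highest and its neuron markers (5379 CPM) the lowest of the group. Library A at 24 h was lowest for 7 members, with the lowest neutrophil (29.3 CPM) and red blood cell (63.3 CPM) markers. Its microglia (447 CPM) and choroid plexus (9.77 CPM) markers were the highest of the group. At day 3, library A was lowest for 8 of the 10 members. Its microglia (437 CPM), monocyte and macrophage (23.5 CPM) and neutrophil (4.80 CPM) markers were the lowest of the group. So were its oligodendrocyte (1457 CPM), endothelial (153 CPM) and red blood cell (97.7 CPM) markers. Its neuron markers (7100 CPM) were the highest. Library E at day 3 was highest for 5 members, with the highest fibroblast (1026 CPM) and lowest neuron (4562 CPM) markers. At day 7, library C was highest for 5 members. It had the highest monocyte and macrophage (4082 CPM), fibroblast (4188 CPM), microglia (1411 CPM) and endothelial (158 CPM) markers of the group. Its neuron (3956 CPM), astrocyte (876 CPM), oligodendrocyte (1585 CPM) and striatum (102 CPM) markers were the lowest. The color map of single MCAO libraries shows these shared deviations. The part of tissue makeup in the spread of the members was not tested.

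**Figure D4:**
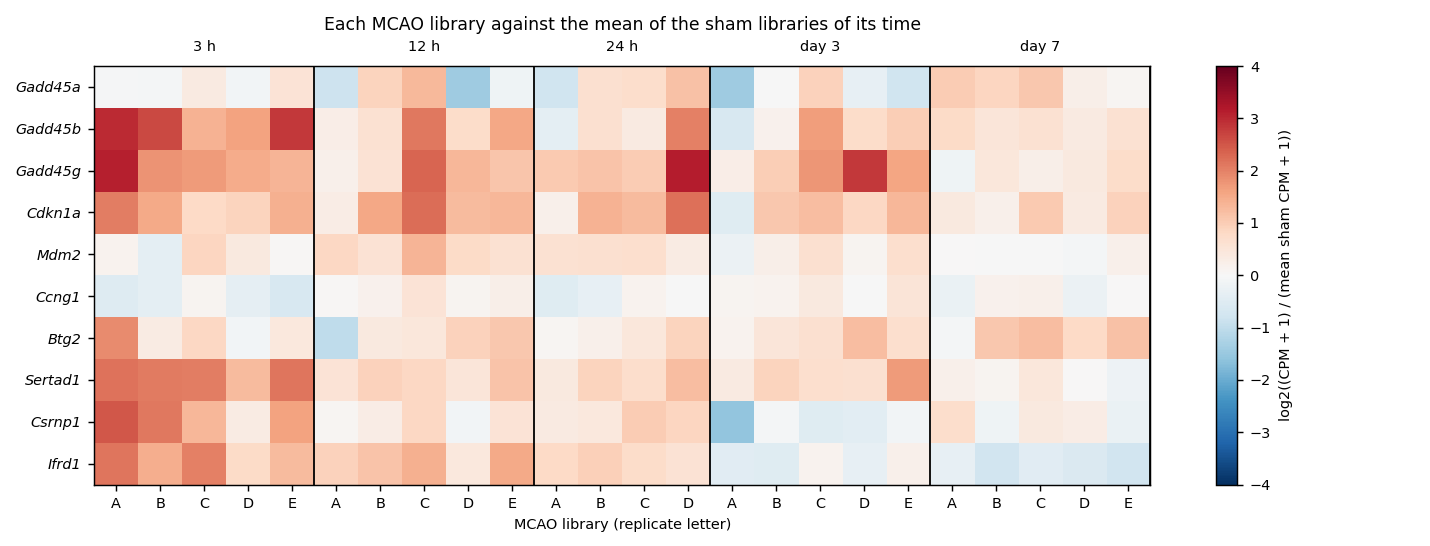
Each MCAO library (columns, by replicate letter within each time) against the mean of the shams of its time, for the 10 genes (rows). The color gives log2 of the ratio of CPM + 1, red where the MCAO library is higher and blue where it is lower. Library A at 3 h, library C at 12 h and library D at 24 h have the deepest red for *Gadd45g* and *Cdkn1a* within their time, and library A at day 3 is mostly pale or blue.

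The other genes of these pathways were counted from lists. Of 23 further p53 targets, 0 were called at 3 h, 12 h, 24 h and day 7. The shares of all genes called higher were then 0.0901%, 0.346%, 0.0801% and 2.07%. At day 3, where 3.76% of all genes were called higher, 2 of the list were called. These were *Rps27l*, a ribosomal protein-like gene that p53 induces, at 40.9 CPM ± 23.1 (SD, n = 5) against 15.4 CPM ± 2.26 (SD, n = 4) in sham (1.41 ± 0.35, edgeR adjusted p = 0.00548), and the death receptor gene *Tnfrsf10b*, at 1.47 to 11.9 CPM against 0 to 0.937 CPM (edgeR adjusted p = 0.00264). At low levels, *Tnfrsf10b* also had every MCAO library above every sham library at 3 h, 12 h, 24 h and day 7. Its log2 fold change was 3.45 at day 3. At those other times it was 3.50, 3.89, 1.175 and 2.86, without a call (edgeR adjusted p = 0.157, 0.0327, 0.709 and 0.0134). The median log2 fold change of the list was 0.01 at 3 h, 0.11 at 12 h, 0.37 at day 3 and 0.50 at day 7. The medians of all genes at these times were 0.00, 0.01, 0.01 and 0.06. None of 11 genes for p53 and its regulators, such as *Trp53*, *Mdm4* and *Atm*, was called, with medians from -0.01 to 0.30. Of all genes, 0.0801% to 3.76% were called higher by time.

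No relative of the members was called at 3 h, where 0.0901% of all genes were called higher. Among 15 paralogs and named relatives, 14 could be tested (*Btg4* was too low). Of these, 0 were called up to day 3, beside 0.0801% to 3.76% of all genes called higher. *Tob2*, an antiproliferative gene of the BTG family, was called at day 7, where 2.07% of all genes were called higher. *Tob2* then measured 40.2 to 55.7 CPM after MCAO and 6.39 to 27.3 CPM in sham (1.59 ± 0.34, edgeR adjusted p = 0.00156). The medians of this list were 0.33 at 3 h and 0.48 at day 7. Of 6 other CDK inhibitors only *Cdkn2c*, which encodes the CDK4 and CDK6 inhibitor p18, was called, at day 3 (3.76% of all genes), with 2.14 to 12.0 CPM against 0.363 to 1.41 CPM (edgeR adjusted p = 4.38e-04).

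Cyclins and their kinases, the targets of these inhibitors, were called at day 3 and day 7 only. Of 12 such genes, 0 were called at 3 h, 12 h and 24 h, beside 0.0901%, 0.346% and 0.0801% of all genes called higher. The list had 4 calls at day 3 and 2 at day 7, where 3.76% and 2.07% of all genes were called higher. At day 3 they were *Ccnd3* (1.24 ± 0.22, edgeR adjusted p = 1.10e-04) and *Ccnd1* (1.10 ± 0.23, edgeR adjusted p = 7.83e-04), both D-type cyclins of the G1 phase, and *Cdk1* and *Ccna2*, which drive S phase and mitosis. *Cdk1* held 0.534 to 55.5 CPM after MCAO at day 3 and 0 to 2.34 CPM in sham, and *Ccna2* 1.07 to 21.6 against 0 to 0.363 CPM. Both were still called at day 7, at 5.77 to 48.8 against 0 to 0.467 CPM and at 1.25 to 10.1 against 0 to 0.572 CPM. The median of the list was -0.02 at 3 h and 1.17 at day 3. The microglia markers (437 to 1255 CPM after MCAO and 176 to 270 CPM in sham at day 3) and the monocyte and macrophage markers (23.5 to 891 and 6.07 to 16.4 CPM) were higher as well, and their part was not tested.

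Of 10 MAP kinase partners of GADD45 proteins, none was called higher at any time, beside 0.0801% to 3.76% of all genes. At day 7, 2 were called lower, as were 1.43% of all genes. *Mapk11*, which encodes p38 beta, fell by 1.59 on the log2 scale (SE 0.27, edgeR adjusted p = 1.22e-04), with 9.60 to 28.2 CPM after MCAO and 36.4 to 112 CPM in sham. *Mapk10*, which encodes the neuronal kinase JNK3, fell by 0.71 (SE 0.16, edgeR adjusted p = 0.00255). The neuron markers summed to between 3956 and 6812 CPM after MCAO at day 7 and to between 6781 and 7591 CPM in sham, and their part in these differences was not tested.

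Across the 11 group means of log2(CPM + 1), the members formed pairs of similar course. Pearson's r was 0.95 for *Gadd45b* with *Sertad1*, 0.90 for *Gadd45g* with *Cdkn1a* and 0.87 for *Csrnp1* with *Ifrd1*. *Ccng1* had a negative r with each of the 9 other members, from -0.68 to -0.08. All groups come from one set of libraries and each point is a mean of 4 or 5 of them, so these values are descriptions.

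Outside the set, the genes with the closest course were named among 13861 genes with a mean of at least 2 CPM. They were *Rassf1* (r = 0.98) and *Rasa3* (0.97) for *Gadd45g*, *Tgfb1i1* (0.95) and *Tbc1d1* (0.93) for *Gadd45b*, and *Timm29* (0.92) for *Gadd45a*. *Cdkn1a* was closest to *Fndc3a* (0.96), *Rn7sk* (0.95) and the heat shock gene *Hspa1a* (0.93), *Mdm2* to *Dusp16* (0.91), *Btg2* to *E2f4* (0.88) and *Ccng1* to *Terf1* (0.88). *Sertad1* was closest to the clock repressor gene *Bhlhe41* (0.95), *Csrnp1* to the neuronal glucose transporter gene *Slc2a3* (0.92) and *Nptx2* (0.91), and *Ifrd1* to *Crybg2* (0.98), *Ccsap* (0.96) and *Prkab2* (0.96). Each r is over 11 group means, which share the same libraries and scaling.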

How the data were processed

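Libraries were grouped by the condition, time and replicate letter in their labels. The authors trimmed reads with Trimmomatic, removed ribosomal and mitochondrial reads with SortMeRNA, aligned to GRCm38 with ERCC spike-ins by STAR 2.5.2b and assigned them to Gencode vM8 genes with htseq-count (union mode). The strand setting of the counting is not given in the sources used here. The main deposited files hold raw gene counts, and the authors also deposited a matrix of DESeq2 variance-stabilized values on a log2 scale, used here only for 1 alternative. A median of 23.5% of alignments had no feature, 0.400% were ambiguous and 33.5% were not unique. These and the spike-ins (3.71 to 5.97% of counts) stayed out of library sizes and tests.

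Symbols came from Gencode vM21 on the same build, which matched 46488 of 46983 identifiers, and promoters from RefSeq on GRCm38.p6. Comparisons were fitted by edgeR 4.0.16 under R 4.3.3 (TMM, glmQLFit, glmQLFTest) in one model of the 11 groups, over 19970 genes with more than 10 counts, in 20 comparisons. The biological coefficient of variation was 24.9%. Calls needed an absolute log2 fold change over 0.58 and an adjusted p (Benjamini-Hochberg) under 0.01. Tables were made in Python 3.11.15 with pandas 2.3.3, numpy 2.4.6 and scipy 1.17.1 and drawn with matplotlib 3.10.9. The model was tested on simulated data.

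The members, gene lists and alternatives were chosen with earlier results of these data known. Named genes were the 10 members, up to 4 called genes of each list and the 3 genes most like each member by Pearson's r. The labels do not say that replicates came from separate mice, while the paper gives at least 4 mice per condition, and no pair of libraries was identical. The labels do not say whether replicate letters pair libraries. The deviations from group means of same-lettered MCAO and sham libraries correlated over 0.1 in 8 of 20 pairs. Libraries of different letters were not compared, so these values cannot decide whether the letters pair libraries. The series text speaks of 3 hemispheres per timepoint, while 4 or 5 libraries are listed per group. Alternatives were DESeq2 size factors in the edgeR fit, DESeq2 1.42.0, limma 3.58.1 on the log2 matrix, filterByExpr or no filter, spike-in scaling, the letter as a block, only the groups compared, each library left out in turn, and a pseudocount of 0.1 in place of 1 for the likeness of courses.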

Additional observations from a re-analysis of the deposited data

Results flagged for a closer look

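The effect of MCAO over sham was smaller at day 7 than at 3 h for *Sertad1* (-1.89 on the log2 scale) and *Ifrd1* (-2.19), by a test of the difference itself (edgeR adjusted p = 0.00217 and 5.73e-05).

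In 10 of 110 combinations of a member and a group, 1 library stood apart from the others of its group by Dixon's criterion, which chance meets in about 1 of 20. After MCAO, *Gadd45g* measured 266 CPM in library A at 3 h (others 78.8 to 107 CPM) and 259 CPM in library D at 24 h (others 58.9 to 64.5 CPM). *Mdm2* measured 120.5 CPM in library C at 12 h (others 68.9 to 82.3 CPM), and *Sertad1* measured 42.2 CPM in library D at 3 h (others 73.0 to 79.6 CPM).

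Among shams, *Gadd45a* measured 0.912 CPM in library D at day 7 (others 2.73 to 2.86 CPM), which is 2 counts, and *Gadd45g* 15.9 CPM in library C at day 3 (others 21.6 to 22.6 CPM). *Mdm2* measured 65.3 CPM in library A at 24 h (others 50.002 to 50.9 CPM) and *Sertad1* 22.8 CPM in library A at day 3 (others 13.8 to 14.9 CPM). *Csrnp1* measured 19.96 CPM in library C at 12 h (others 9.39 to 10.9 CPM) and 12.5 CPM in library A at 24 h (others 6.82 to 7.32 CPM).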

How the results depend on the processing

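No called difference of a member reversed under any alternative. *Gadd45b*, *Sertad1* and *Ifrd1* at 3 h were called against sham in all 8 other settings and in all 9 fits without 1 library. Of the counts of members called, those against sham at 12 h (main value 3) came to 0 with spike-in scaling and 0 with only the groups compared. Those at 24 h (0) came to 2 without a filter, 1 with spike-in scaling (*Gadd45g*, adjusted p = 0.00658) and 1 with DESeq2. Those at day 3 (2) came to 0 with spike-in scaling, 0 with only the groups compared and 1 with limma. Against control, the counts came to 0 with spike-in scaling and 1 with only the groups compared at 12 h (2), to 2 without a filter and 2 with only the groups compared at 24 h (1), and to 2 without a filter and 0 with spike-in scaling, only the groups compared or limma at day 3 (1). With spike-in scaling the median log2 fold change of all genes lay between -0.22 and 0.14 against sham, beside 0.00 to 0.06 in the main fit. Against control it lay between -0.28 and -0.05 with spike-in scaling. The cause of these shifts was not tested.

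Leaving out each library in turn gave 3 to 5 members against sham at 3 h, 0 to 2 at 12 h, 0 to 0 at 24 h, 0 to 3 at day 3 and 0 to 0 at day 7. Against control it gave 4 to 6, 1 to 3, 0 to 1, 0 to 2 and 0 to 0, and for the change of effect from 3 h to day 7 it gave 1 to 2. With the replicate block the count was 1 against sham at 12 h, 1 against sham at day 3 and 0 against control at day 3. The calls lost against sham were *Cdkn1a* at 12 h (1.41, adjusted p = 0.0134), *Mdm2* at 12 h (0.84, adjusted p = 0.0131) and *Sertad1* at day 3 (0.84, adjusted p = 0.0157). The block moved no other count of members by over 1.5 times, and whether the letters pair libraries is not known. At 2 to 25 counts per library, *Gadd45a* is the member whose precision depth limits most, with SEs of 0.49 to 0.58 on the log2 scale.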
